A study of Homo sapiens with 4 samples.

Results

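The genes described here are 48 genes of mitosis: the kinases that drive cells into and through cell division, the kinesin motors of the spindle, the kinetochore, the spindle checkpoint and the machinery of anaphase and cytokinesis. They were chosen by symbol, and each of the 48 symbols matched 1 gene among the 60623 genes of the deposited table. RNA was sequenced from T24, a human bladder cancer cell line, with 2 libraries from control cells (T24 control) and 2 from cells made to overexpress CBX7 (T24 CBX7). CBX7 is a chromodomain protein of Polycomb repressive complex 1, which binds trimethylated histone H3 and keeps genes silent. Per the study's methods, full-length CBX7 was placed in the pCDH-3xFLAG vector. All libraries come from 1 cell line, and the labels do not say whether the libraries of a group are separate cultures, so the p-values measure the spread between these libraries, which may be technical.

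Cells enter mitosis when cyclin B activates CDK1. The spindle then attaches to chromosomes at kinetochores, the checkpoint holds back the anaphase-promoting complex until every kinetochore is attached, and separase opens the cohesin rings. Most transcripts of this program peak late in the cell cycle, and many of their promoters carry a cell cycle homology region (CHR) and CCAAT boxes. In proliferating tumor lines these transcripts are abundant, so in a bulk culture a smaller number of mitotic cells and less mRNA per cell cannot be told apart.

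The expected counts summed to between 20800910 and 25135488 per library. CBX7 itself, the overexpressed gene, had 261.4 and 203.3 counts in the control libraries and 42852.5 and 35641.3 in the CBX7 libraries, so the labels of all 4 libraries matched it. The CBX7 libraries differed from each other more than the control libraries did (chi-square per degree of freedom over genes 59.7 against 6.49). The epithelial keratins KRT7, KRT8 and KRT18 were abundant in every library, at 957.0 CPM (the count scaled to library size by TMM) or more. KRT19 was low, at 6.54 and 5.72 CPM in control and 18.5 and 12.8 CPM in CBX7 cells, and EPCAM was at 0.671 to 1.82 CPM. CDH1, the epithelial cadherin, had at most 2 counts in any library, and the urothelial uroplakins UPK1A, UPK1B, UPK2 and UPK3A had at most 3, as did KRT5, KRT20 and TP63. Of the urothelial transcription factors, PPARG had 550 to 774 counts in every library, and GATA3 had 3 and 4 counts in control and 14 and 22 in CBX7 libraries. The 8 leukocyte, endothelial and erythroid markers ranged from 0 to 29 counts per library.

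Promoter windows in the RefSeq table (GRCh38.p14, 250 bases before to 50 after the transcription start) were found for 42 of the 48 genes. AURKA, BUB3, RACGAP1, TPX2, TTK and UBE2C had no entry. A CHR was searched as TTTGAA or TTCGAA and a CCAAT box as CCAAT, on both strands, so that the reverse forms TTCAAA and ATTGG counted too, TTCGAA being its own reverse. The CHR and CCAAT words can share bases where TTTGAA runs into ATTGG. A CHR word was present in 32 of the 42 windows (76.2%), against 4539 of all 27305 promoter windows (16.6%), and a CCAAT word in 31 (73.8%), against 35.7%. Both were present in 26 (61.9%), against 6.58% of all windows. At least 2 CCAAT words stood in 18 windows (42.9%), against 11.3%. A CHR word lay wholly within the 100 bases before the start in 17 windows (40.5%), against 4.94%. In windows of 74 other mitotic genes, 32 held a CHR (43.2%), 17 held both words (23%) and 11 held a CHR wholly in the 100 bases before the start (14.9%). In windows of 32 DNA replication genes, which act earlier in the cycle, 1 held a CHR (3.12%) and 19 a CCAAT word (59.4%). A match is a description of letters and not a bound site. The plot of motif positions shows where these matches lie.

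**Figure D1:**
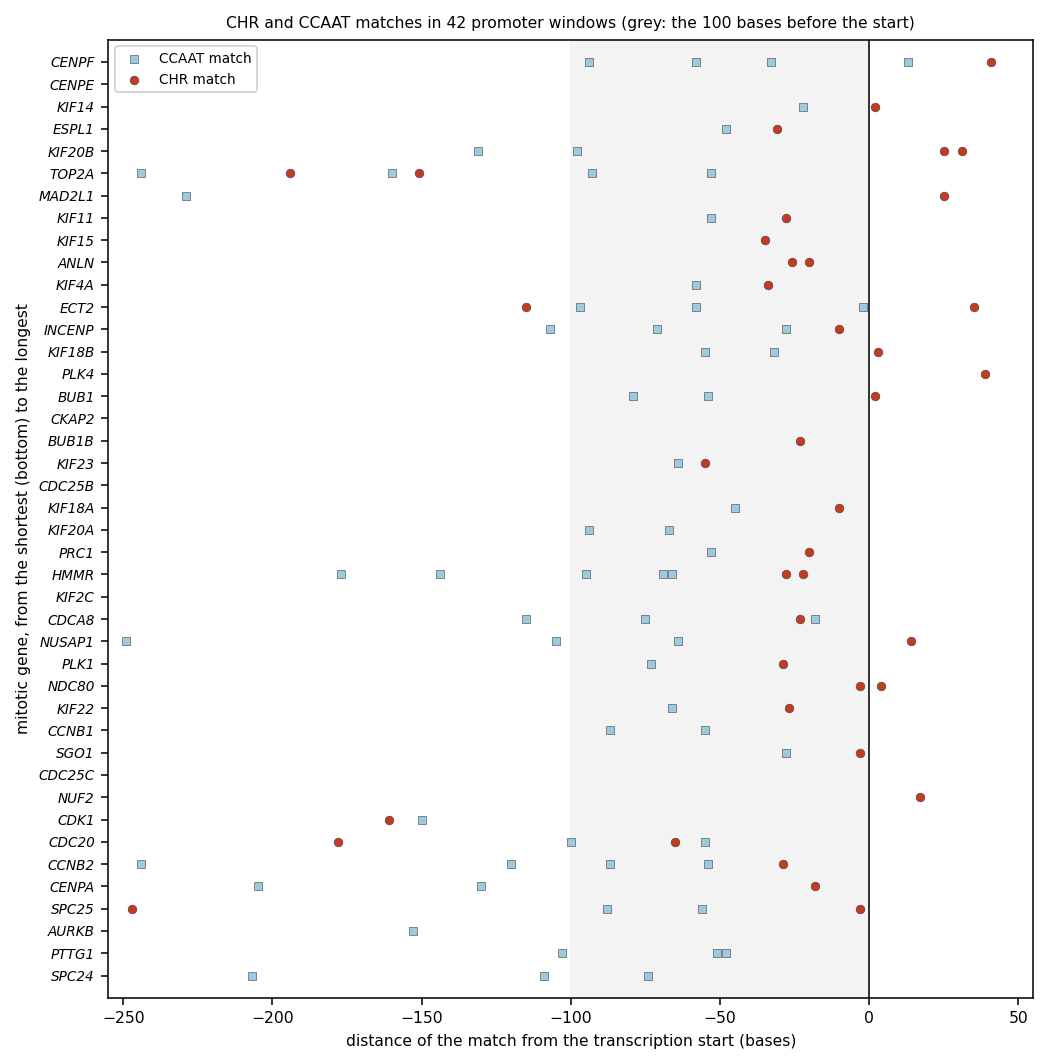
Position of each CHR (red circles) and CCAAT (blue squares) match, in bases from the transcription start, in the promoter windows of 42 mitotic genes ordered from the shortest transcript to the longest. Each point is the first base of a match: in 20 windows a CHR match begins in the shaded 100 bases before the start, in 17 of them it lies wholly there and in 3 (NDC80, SGO1 and SPC25) it runs over the start, and long and short genes both carry such matches.

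The 100 bases before the start are printed below for 4 genes of the shorter and 4 of the longer part of the set, picked because they hold a CHR there, since the response to CBX7 is compared between long and short genes further on. Of the genes at the ends of the length range, SPC24, PTTG1 and CENPE held no CHR word in the whole window and CENPF held its CHR after the start. The CHR and CCAAT words are in capitals, and all windows shown are on the plus strand of GRCh38.p14. The short genes are CENPA (chr2:26785956-26786055), CCNB2 (chr15:59105046-59105145), CDC20 (chr1:43358881-43358980) and PLK1 (chr16:23678789-23678888).
CENPA: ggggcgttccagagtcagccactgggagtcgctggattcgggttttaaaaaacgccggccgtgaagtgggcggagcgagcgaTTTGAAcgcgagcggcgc
CCNB2: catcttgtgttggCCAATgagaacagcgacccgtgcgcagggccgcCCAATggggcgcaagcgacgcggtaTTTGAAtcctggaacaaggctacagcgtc
CDC20: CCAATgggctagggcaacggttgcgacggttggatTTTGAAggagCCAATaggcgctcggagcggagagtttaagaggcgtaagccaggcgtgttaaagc
PLK1: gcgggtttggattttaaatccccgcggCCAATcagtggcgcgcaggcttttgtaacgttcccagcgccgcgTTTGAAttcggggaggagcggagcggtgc
The long genes are INCENP (chr11:62123911-62124010), KIF4A (chrX:70290004-70290103), KIF11 (chr10:92593030-92593129) and ESPL1 (chr12:53268199-53268298).
INCENP: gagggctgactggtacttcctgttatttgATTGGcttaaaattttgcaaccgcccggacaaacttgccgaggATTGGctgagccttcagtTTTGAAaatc
KIF4A: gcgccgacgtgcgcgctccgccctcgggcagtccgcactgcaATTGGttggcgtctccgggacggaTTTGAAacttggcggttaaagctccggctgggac
KIF11: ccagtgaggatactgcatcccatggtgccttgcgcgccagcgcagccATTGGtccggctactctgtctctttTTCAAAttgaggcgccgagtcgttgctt
ESPL1: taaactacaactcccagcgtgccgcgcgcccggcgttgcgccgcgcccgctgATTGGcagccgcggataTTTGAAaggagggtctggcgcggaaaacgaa
In each of these windows except that of CENPA a CCAAT word accompanies the CHR.

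The 48 genes lie on 18 chromosomes. All were detected in every library, with between 380.2 and 11851 counts, and all 48 passed the filter on low counts. On the TPM scale, which divides by transcript length and so allows genes to be compared, the mean control level ran from 13.8 TPM for CDC25C to 421.0 TPM for UBE2C, with a median of 66.65 TPM. UBE2C, the ubiquitin-conjugating enzyme of the anaphase-promoting complex, PTTG1 (securin, 320.0 TPM), CCNB1 (cyclin B1, 290.0 TPM) and CDC20 (the complex's activator, 275.0 TPM) were the most abundant. Their partners in the same step were far lower on this scale, with separase (ESPL1) at 28.0 TPM and shugoshin (SGO1) at 17.6 TPM. The 4 subunits of the NDC80 complex, which carries microtubules at the outer kinetochore, lay close together, between 46.5 TPM for SPC25 and 59.1 TPM for NUF2. The kinesins spanned 15.1 TPM for KIF14 to 103.0 TPM for KIF11, the motor that pushes spindle poles apart. Among checkpoint genes, BUB3 (177.0 TPM) and MAD2L1 (95.2 TPM) were above the kinases BUB1 (59.6 TPM), BUB1B (31.4 TPM) and TTK (28.2 TPM). Neighbours in this order such as NUF2 and NDC80 (59.1 ± 1.41 and 58.9 ± 0.594 TPM, SD, n = 2) did not differ beyond their spread.

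**Figure D2:**
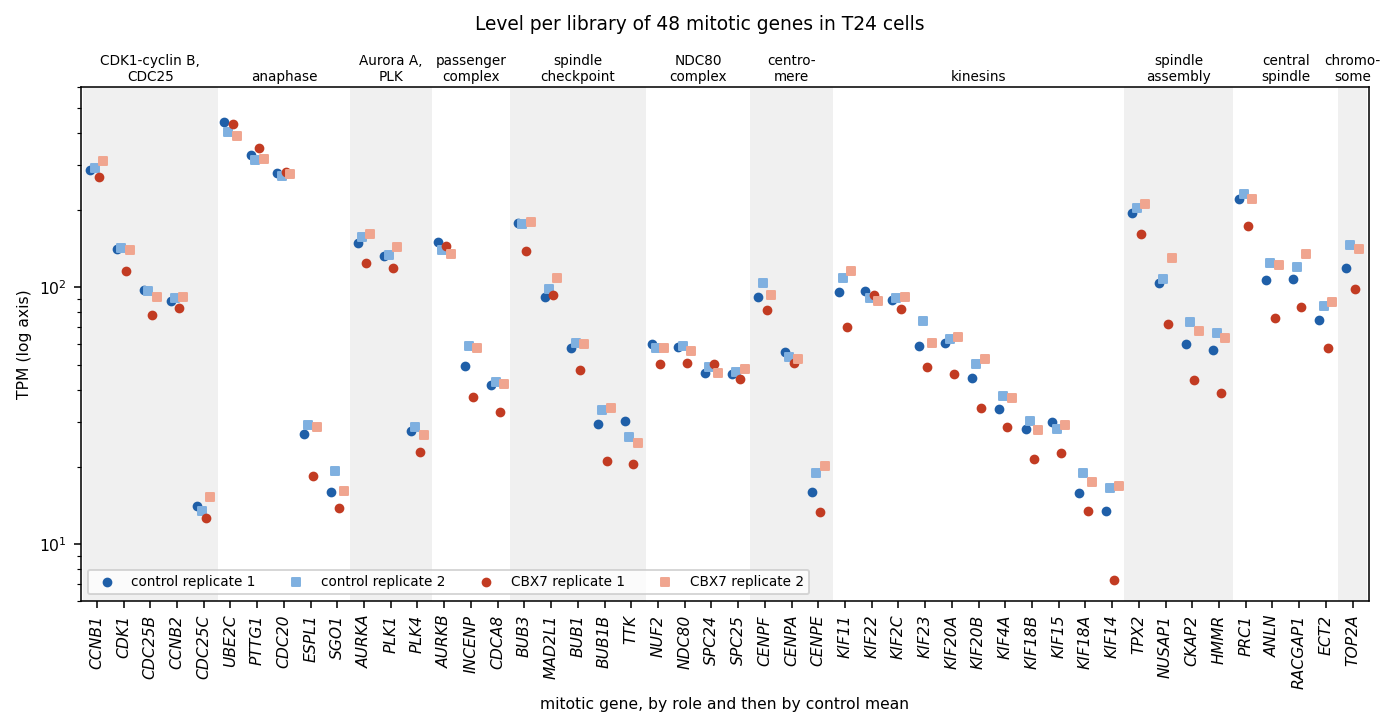
TPM (log axis) of each of the 48 mitotic genes in every library, grouped by role and ordered within a role by the control mean. Circles are replicate 1 and squares replicate 2, in blue for control and red for CBX7 cells. CBX7 replicate 1 is the lowest point for 41 of the 48 genes, down to 7.25 TPM for KIF14.

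Deposited TPM values and TMM-scaled CPM placed CBX7 replicate 1 differently. Over 11077 genes averaging 100 counts or more, the median difference of CBX7 replicate 1 from the control mean was -0.24 on the log2 scale in TPM and 0.01 in CPM, and for the 48 genes it was -0.33 and -0.07. Relative to all genes the mitotic genes were thus at -0.09 and -0.08 in that library, and at -0.02 and -0.01 in CBX7 replicate 2. Differences below are therefore given in TMM-scaled CPM.

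None of the 48 genes passed the test between CBX7-overexpressing and control cells. By the quasi-likelihood test of edgeR, adjusted by Benjamini-Hochberg over all 14862 genes, 0 of the 48 had an adjusted p under 0.05 (background 0.0202% of genes) and 0 had an unadjusted p under 0.05 (background 4.74%). Their adjusted p-values lay between 0.951 and 0.996, and the smallest unadjusted p was 0.231, for HMMR. DESeq2's Wald test likewise gave 0 at either threshold. The median log2 fold change was -0.05, beside 0.002 over all tested genes. Single genes ran from -0.27 for KIF14 to 0.19 for PTTG1. Of the 48, 31 lay below 0 and 17 above, beside 7390 and 7472 of all tested genes. The 95% interval of the change lay within 1.5-fold in both directions for 41 genes and within 2-fold for 47. KIF14 was the exception, with a lower bound of -1.05. The genes at the ends of this range lie on chr1:200551497-200620734 (KIF14, minus strand) and chr5:160421822-160428744 (PTTG1, plus strand), and HMMR on chr5:163460203-163491945 (plus strand), in GENCODE 29 on GRCh38. For 1 gene at 2 against 2 libraries, the smallest two-sided p of an exact permutation test is 0.333.

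CDK1 and cyclin B form the kinase that starts mitosis, and CDC25 phosphatases switch it on. CCNB1 (2029 bases) was at 288.0 and 276.0 CPM in the control libraries and 325.0 and 295.0 CPM in the CBX7 libraries, a log2 fold change of 0.14 (standard error 0.13). Both CBX7 libraries were above both control libraries. CCNB2 (1488 bases), the second B-type cyclin, was at 80.0 and 79.8 CPM in control and 90.7 and 79.3 CPM in CBX7 cells, so the groups overlapped. CDC25B (3597 bases) was at 197.0 and 184.0 CPM in control and 190.0 and 175.0 CPM in CBX7 cells, again with overlap. The log2 fold changes of CDK1 and CDC25C were -0.02 and 0.05.

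Anaphase begins when the complex activated by CDC20 destroys securin and frees separase. PTTG1 (1070 bases) was at 119.0 and 111.0 CPM in control and 154.0 and 109.0 CPM in CBX7 cells, a log2 fold change of 0.19 (standard error 0.20). UBE2C (777 bases) was at 177.0 and 157.0 CPM in control and 212.0 and 149.0 CPM in CBX7 cells. In both genes CBX7 replicate 1 was the highest library and CBX7 replicate 2 the lowest, on either side of the controls. Separase, ESPL1 (6447 bases), was at 91.9 and 99.2 CPM in control and 77.1 and 102.0 CPM in CBX7 cells, and here CBX7 replicate 1 was the lowest and CBX7 replicate 2 the highest. CDC20 had a log2 fold change of 0.13. SGO1, which protects centromeric cohesin, was at -0.07 with both CBX7 libraries slightly below both controls.

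Aurora A (AURKA) and the Polo-like kinases build the spindle poles. PLK1 (2160 bases) was at 184.0 and 177.0 CPM in control and 200.0 and 186.0 CPM in CBX7 cells, a log2 fold change of 0.10 (standard error 0.13) without overlap of the groups. PLK4 (3838 bases), the kinase of centriole duplication, was at 53.1 and 54.5 CPM in control and 44.2 and 53.6 CPM in CBX7 cells. Its groups overlapped because CBX7 replicate 2 lay between the controls. AURKA had a log2 fold change of 0.02.

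The chromosomal passenger complex, which corrects wrong attachments, joins the kinase Aurora B to INCENP and borealin. AURKB (1254 bases) was at 97.7 and 91.8 CPM in control and 116.0 and 85.8 CPM in CBX7 cells. INCENP (4114 bases), its scaffold, was at 176.0 and 190.0 CPM in control and 136.0 and 189.0 CPM in CBX7 cells. The kinase and its scaffold thus lay on opposite sides of the controls in CBX7 replicate 1, and their fitted log2 fold changes were 0.09 (standard error 0.18) and -0.17 (standard error 0.19). CDCA8 (borealin) was at -0.08, with both CBX7 libraries below both controls.

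The spindle checkpoint delays anaphase. TTK (2966 bases), the kinase that starts checkpoint signalling, was at 46.9 and 48.3 CPM in control and 44.1 and 47.1 CPM in CBX7 cells. BUB3 (7703 bases), which brings BUB1 and BUB1B to kinetochores, was at 175.0 and 168.0 CPM in control and 168.0 and 166.0 CPM in CBX7 cells, a log2 fold change of -0.04 (standard error 0.12). Both CBX7 libraries were below both controls for BUB3, control replicate 2 and CBX7 replicate 1 being equal after rounding. MAD2L1, the checkpoint inhibitor of CDC20, was higher in both CBX7 libraries, at 130.0 and 122.0 CPM against 116.0 and 120.0 CPM. BUB1 and BUB1B had log2 fold changes of -0.12 and -0.07.

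Within the NDC80 complex, SPC24 (633 bases), the shortest gene of the set, was at 40.4 and 38.8 CPM in control and 50.7 and 36.4 CPM in CBX7 cells. NDC80 itself (2126 bases) was at 81.3 and 80.6 CPM in control and 86.1 and 74.6 CPM in CBX7 cells. The CBX7 libraries lay on either side of the controls in both genes. SPC25 and NUF2 had log2 fold changes of 0.11 and 0.00.

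The centromere proteins include CENPE and CENPF, the longest genes of the set. CENPA (1389 bases), the histone H3 variant that marks the centromere, was at 45.6 and 43.4 CPM in control and 49.5 and 41.9 CPM in CBX7 cells. CENPE (8624 bases), a kinetochore kinesin that moves chromosomes to the spindle equator, was at 97.9 and 118.0 CPM in control and 97.2 and 124.0 CPM in CBX7 cells, a log2 fold change of 0.04 (standard error 0.18). CENPF (10290 bases), a large kinetochore protein, was at 254.0 and 317.0 CPM in control and 201.0 and 306.0 CPM in CBX7 cells, a log2 fold change of -0.17 (standard error 0.24). For both long genes, replicate 1 was below replicate 2 in each group, and the libraries within a group differed by more than the group means.

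The 11 kinesins had a median log2 fold change of -0.079, with 9 below 0. KIF14 (7291 bases), a motor of cytokinesis, was at 72.7 and 86.1 CPM in control and 45.1 and 86.5 CPM in CBX7 cells, a log2 fold change of -0.27 (standard error 0.31). One library, CBX7 replicate 1, carried that value, and the other CBX7 library was above both controls. KIF22 (2113 bases), a motor that binds chromosome arms, was at 134.0 and 120.0 CPM in control and 152.0 and 115.0 CPM in CBX7 cells. KIF15, KIF18B, KIF20A and KIF23 were lower in both CBX7 libraries, with log2 fold changes of -0.17, -0.10, -0.08 and -0.12. KIF11, KIF4A, KIF18A, KIF20B and KIF2C lay between -0.08 and 0.07 with overlapping groups.

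All 4 spindle assembly genes and all 4 genes of the central spindle and cytokinesis had values below 0, TPX2 and RACGAP1 only just. The medians were -0.092 and -0.11. By library, the medians against the control mean were -0.163 and -0.237 in CBX7 replicate 1 and -0.013 and 0.058 in CBX7 replicate 2. HMMR (3016 bases), a microtubule-binding protein of the spindle, was at 98.5 and 104.0 CPM in control and 83.6 and 94.7 CPM in CBX7 cells, a log2 fold change of -0.18 (standard error 0.14). Both CBX7 libraries were below both controls. PRC1 (3072 bases), the bundler of central spindle microtubules and not the Polycomb complex of the same abbreviation, was at 308.0 and 314.0 CPM in control and 281.0 and 297.0 CPM in CBX7 cells, also without overlap. ANLN (4731 bases), a scaffold of the contractile ring, was at 339.0 and 387.0 CPM in control and 267.0 and 372.0 CPM in CBX7 cells. CKAP2 (3629 bases) was at 150.0 and 160.0 CPM in control and 126.0 and 153.0 CPM in CBX7 cells, and NUSAP1 (2263 bases) at 115.0 and 114.0 CPM in control and 111.0 and 114.0 CPM in CBX7 cells. In ANLN and CKAP2 the low library was CBX7 replicate 1. TOP2A (5695 bases), the topoisomerase that untangles sister chromatids, was at 469.0 and 516.0 CPM in control and 383.0 and 507.0 CPM in CBX7 cells, with the same low library. TPX2, RACGAP1 and ECT2 had log2 fold changes of -0.00, -0.01 and -0.11.

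Counted over the set, both CBX7 libraries were below both controls for 9 genes (18.8%, beside 14.8% of all tested genes) and above both for 3, namely CCNB1, PLK1 and MAD2L1 (6.25%, beside 15.4%). The other 36 overlapped. These shares were not tested against those of all tested genes, and the 48 genes share the same libraries. In deposited TPM, 9 genes were lower (18.8%, beside 17.4% of all tested genes), 2 of which (PRC1 and KIF18B) were also lower in CPM, and 0 were higher (0%, beside 12.2%). With upper-quartile scaling 12 were lower (25%, beside 16.6%) and 1 was higher (2.08%, beside 13.3%). The gap between the CBX7 libraries was larger than that between the control libraries for 43 of the 48 genes, with medians of 0.20 and 0.08 on the log2 scale, and 40 genes had a fitted change smaller than the larger of their own 2 gaps.

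**Figure D3:**
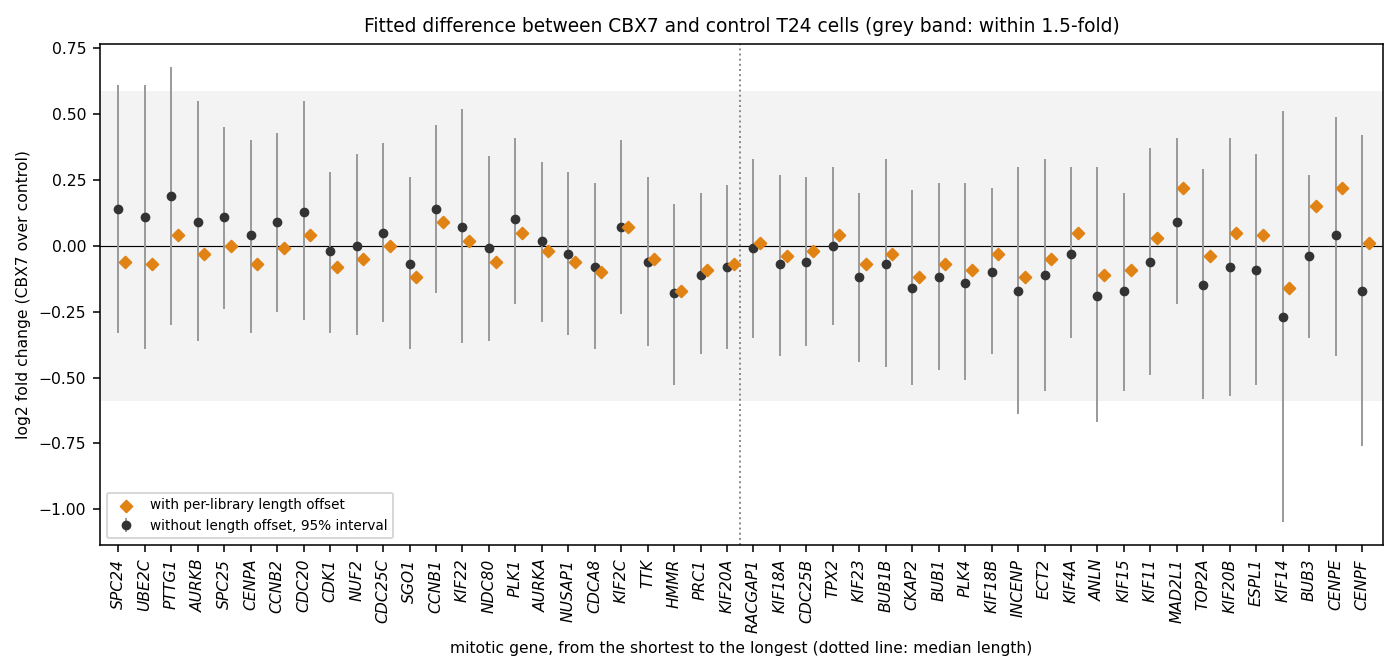
Fitted log2 fold change (CBX7 over control) of the 48 mitotic genes from the shortest to the longest, with 95% intervals (black) and after removal of each library's length trend (orange). Every black interval crosses 0, and 22 of the 24 genes right of the dotted median length lie below 0 before the offset. Over all tested genes the long minus short median was -0.169, beside -0.14 here.

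Most long genes lay below 0, while short genes lay on both sides of it. Of the 24 genes longer than the median of 3100.5 bases, 22 had a log2 fold change below 0, the exceptions being CENPE and MAD2L1. Of the 24 shorter genes, 15 were above 0 and 9 below. Over all tested genes of any length, 7390 were below 0 and 7472 above. The median of the long genes minus that of the short ones was -0.14, while over all tested genes with the same cut the difference was -0.169. Between the 16 longest and the 16 shortest genes of the set it was -0.198, and between CENPE, CENPF and the kinesins and all other members it was -0.057. In the 4 length classes of 12 genes each, from short to long, the medians of the mitotic genes were 0.092, -0.018, -0.106 and -0.085, beside 0.123, 0.032, -0.033 and -0.105 for all tested genes. The medians thus went from above 0 in the shortest class to below 0 in the longer ones. Next to the median length, HMMR, PRC1 and KIF20A just below it were at -0.18, -0.11 and -0.08, and RACGAP1 and KIF18A just above it at -0.01 and -0.07.

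The length pattern was seen library by library, and the libraries of a group did not share it. Long minus short medians were -0.015 and 0.166 in control replicates 1 and 2 and -0.292 and 0.136 in CBX7 replicates 1 and 2, a pooled SD between replicates of 0.233. Summed over the 24 long genes the level was 4270.9 and 4611.0 CPM in control and 3756.3 and 4578.6 CPM in CBX7 cells. Summed over the 24 short genes it was 3048.1 and 2945.1 CPM in control and 3258.5 and 2902.2 CPM in CBX7 cells. CBX7 replicate 1 was thus the lowest library for long genes and the highest for short genes, while CBX7 replicate 2 lay between the controls or just below them. The sum over all 48 was 7319 and 7556 CPM in control and 7015 and 7481 CPM in CBX7 cells, and these ranges overlap.

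Across genes, which share libraries and are not replicates, the difference between CBX7 replicates 1 and 2 went with length at a Spearman coefficient of -0.84 over the 48 genes and -0.70 over 11077 genes. Between the 2 control libraries the coefficients were -0.80 and -0.49. The cause of this trend was not tested. GC content went with the CBX7 difference at 0.46 and 0.43. Among the 24 long genes, CBX7 replicate 1 was below CBX7 replicate 2 for 21, and the 3 exceptions were CDC25B, MAD2L1 and BUB3, with differences between the CBX7 libraries of 0.12, 0.09 and 0.02. CDC25B had an implied length of 3246 bases, close to its deposited 3597. The lengths of BUB3 and MAD2L1 implied by the deposited counts and TPM values were 1604 and 1967 bases, against 7703 and 5227 deposited. CENPF was the only other gene with an implied length under 50% of the deposited one, at 4549 bases. In CBX7 replicate 1 the mitotic genes declined with length as all tested genes did, but their median difference from the control mean was lower in each length class, at 0.191, -0.005, -0.175 and -0.306 beside 0.262, 0.074, -0.065 and -0.268. In CBX7 replicate 2 the medians were -0.078, -0.03, -0.004 and 0.074 beside -0.043, -0.013, 0.005 and 0.046, so that the mitotic genes were higher than all tested genes in the longest class. The plot of differences against length shows both.

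**Figure D4:**
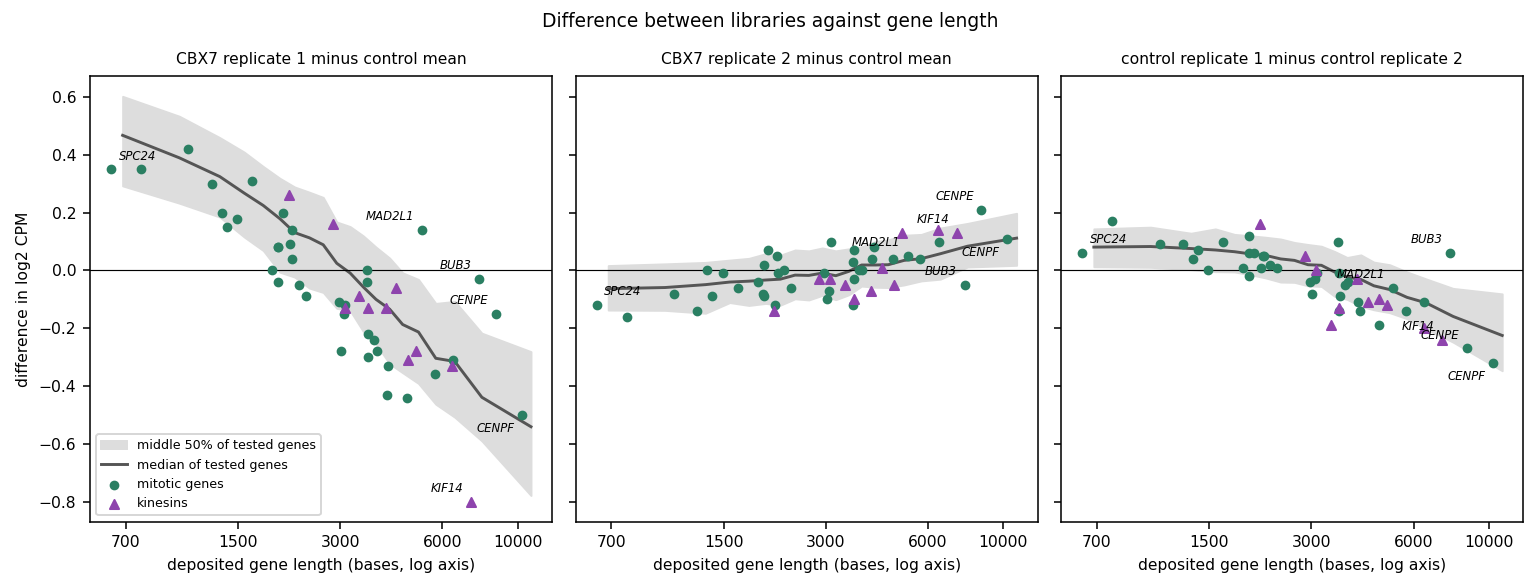
Difference in log2 CPM against deposited gene length (log axis) for CBX7 replicate 1 and CBX7 replicate 2, each minus the control mean, and for control replicate 1 minus control replicate 2. Green circles and purple triangles (kinesins) are the 48 mitotic genes, the line and band are the median and middle 50% of tested genes in bins of length. Values decrease with length in CBX7 replicate 1 and between the controls, and increase slightly with length in CBX7 replicate 2.

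When each library's own trend with gene length was removed, the long minus short difference went to 0.022 (all tested genes -0.001), and the Spearman coefficient of fold change with length went from -0.69 to 0.10. The offset is fitted to take out such a trend over all tested genes, whatever its source, so values near 0 follow from it. Still none of the 48 genes passed the test. The median over the 48 genes was then -0.035, beside 0.009 over all tested genes. Groups did not overlap for 14 genes lower (29.2%, beside 17% of all tested genes) and 5 higher (10.4%, beside 18.7%) in CBX7 cells. With the implied length in the offset they were 16 (33.3%, beside 19.7%) and 5 (10.4%, beside 18.7%). With the deposited length in the offset, HMMR was at -0.17 (standard error 0.10) and PRC1 at -0.09 (standard error 0.08), and with the implied length they were at -0.19 (standard error 0.10) and -0.15 (standard error 0.08). CENPE was at 0.22 (standard error 0.11) with the deposited length and at 0.27 (standard error 0.13) with the implied one, and MAD2L1 was at 0.22 and 0.03. The short genes SPC24, UBE2C, AURKB, CENPA and CCNB2 were below 0 with the deposited length. Of the 9 genes lower in both CBX7 libraries without the offset, 6 also were so with the deposited-length offset, namely SGO1, CDCA8, HMMR, PRC1, KIF20A and KIF15.

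Leaving out single libraries changed the calls in 1 case. Without CBX7 replicate 2, 19 of the 48 genes passed an adjusted p under 0.05 (39.6%, beside 35.5% of all genes tested), with 13 lower, of which 12 were long, and 6 higher, all short. Among them KIF14 was at -0.82 (adjusted p = 2.1e-10, edgeR), CENPF at -0.51 (adjusted p = 8.05e-06, edgeR) and PTTG1 at 0.42 (adjusted p = 0.000488, edgeR). In that fit the CBX7 group is 1 library, assumed to vary like the controls. Without CBX7 replicate 1, or without either control library, 0 of the 48 passed. The long minus short difference was -0.376 without CBX7 replicate 2 and 0.10 without CBX7 replicate 1.

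None of the other genes of mitosis listed passed the test in the same fit. Of 86 further genes (the anaphase-promoting complex, condensin, cohesin, the inner kinetochore, other spindle proteins and the MuvB, B-MYB and FOXM1 factors that act on CHR promoters), 0 had an unadjusted p under 0.05, and the median log2 fold change was -0.019. The 9 cohesin genes, with a median length of 6062 bases, had a median of -0.146, and the 15 genes of the anaphase-promoting complex, with a median of 2574 bases, had 0.058. After the length offset these medians were -0.028 and 0.04. Without the offset, the 8 condensin genes (5088.5 bases) were at -0.077 and the 26 inner kinetochore genes (2499.5 bases) at -0.015. The 21 other mitotic regulators and spindle proteins (2799 bases) were at -0.089 and the 7 MuvB, B-MYB and FOXM1 factors (3186 bases) at 0.005. With the offset these were at 0.04, -0.003, -0.017 and 0.118. The 37 DNA replication genes also had 0 at an unadjusted p under 0.05 and a median of 0.026.

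Near copies of these genes had few counts. KIF4B, an intronless near copy of KIF4A, had 20.1 and 14 counts in control and 7 and 26.1 in CBX7 libraries, while KIF4A had between 2504.0 and 2666.0. The pseudogenes AURKAP1, UBE2CP2, CDC20P1 and CCNB2P1 had at most 8.4 counts in any library. Counts off a whole number by more than 0.05 in at least 1 library occurred for 10 of the 48 genes, AURKA, KIF4A, MAD2L1 and PRC1 among them.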

How the data were processed

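The members and gene lists were chosen with earlier results of these data known. The authors deposited 1 table that holds, per gene and library, an expected count (an estimated count, which need not be whole) and a TPM value scaled by transcript length. The gene length they deposited was used, and their group means, folds and p-values were not. Per-sample columns left unused numbered 0. The submitters' processing notes name cutadapt 1.9.1, HISAT2 2.0.1, HTSeq 0.6.1, DESeq2 and hg19. HTSeq counts are whole, whereas 88.2% to 88.9% of the deposited values were exactly so (90.4% to 90.8% within 0.05), so the tool behind them is not given in the sources used here. Of 60623 gene IDs, 58516 (96.5%) were found in GENCODE 29, used for GRCh38 coordinates, and which annotation gave the deposited lengths is not stated.

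Rounded counts passed filterByExpr and TMM scaling and were tested by glmQLFit and glmQLFTest in edgeR 4.0.16 (R 4.3.3, limma 3.58.1), with condition as the only term, no block, and Benjamini-Hochberg adjustment. CPM values are TMM-scaled. DESeq2 1.42.0 was an alternative. A 95% interval uses the t distribution with 5.61 degrees of freedom. Precision is limited by 2 libraries of 20800910 to 25135488 counts per group. A count of 0 allows up to 3 counts (0.119 to 0.144 CPM), for counting error only. For the length offset, each library's log2 deviation from the gene mean was smoothed against log2 length (lowess, span 0.3) and entered as an offset. An implied length was taken from count over TPM for genes with at least 100 counts and 1 TPM. Scripts were tested on simulated data.

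Values in every library are given for the longest and shortest gene of each role, the 3 largest log2 fold changes in each direction, CENPE, CENPF, the longest gene of the kinesin group (KIF14) and CBX7. MAD2L1, where the groups did not overlap, was added after its values were seen, and the other genes are given by fold change, since every member is accounted for. Other pathway genes were to be named at an unadjusted p under 0.05, which 0 reached. Alternatives were other scalings, DESeq2, the newer quasi-likelihood method, other filters, a replicate block, length offsets, and each library left out. The offsets and split on implied length and the TPM scale were chosen after seeing the data. Promoter windows came from RefSeq (GRCh38.p14). For 38 of the 42, the first 20 transcribed bases were found in the first part of a GENCODE transcript, which does not fix the start exactly.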

Additional observations from a re-analysis of the deposited data

How the results depend on the processing

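No member passed an adjusted p under 0.05 in any fit on all 4 libraries, and the median of the members was below 0 in each fit run. The cause of the differences below was not tested. Over all genes, the count past an adjusted p under 0.05 was 3 in the reported fit, 67 by the Wald test of DESeq2, 265 when low counts were kept and 11 with the implied-length offset. With a replicate block it was 361, with the block and the length offset 733, and with the block and the implied-length offset 390. Members at an unadjusted p under 0.05 numbered 1 with the block (KIF14), 2 with the block and length offset (CENPE and MAD2L1) and 3 with the block and implied-length offset (CENPE, HMMR and PRC1). The lowest adjusted p among members was 0.448 with the block, 0.271 with the block and length offset and 0.195 with the block and implied-length offset (edgeR). The labels do not say that the replicate numbers pair libraries, there are only 2 pairs, and the deviations of same-numbered libraries correlated at 0.38 over 14862 genes. Members below both controls in both CBX7 libraries numbered 14 with the length offset (29.2%, beside 17% of all tested genes) and 16 with the implied-length offset (33.3%, beside 19.7%). Members above both numbered 1 with upper-quartile scaling (2.08%, beside 13.3% of all tested genes), 5 with either offset (10.4%, beside 18.7%) and 0 in TPM (0%, beside 12.2%).

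Among the 25 genes with values in every library by the naming rule, the sign turned with the length offset for 8 (17 of all 48), namely AURKB (-0.0337), BUB3 (0.149), CCNB2 (-0.00965), CENPA (-0.0691), CENPF (0.0111), ESPL1 (0.0386), SPC24 (-0.0592) and UBE2C (-0.0685). With the block added the same genes were at -0.0348, 0.13, -0.00973, -0.0694, 0.0118, 0.0386, -0.0591 and -0.0684. With the implied-length offset it turned for 6 (13 of all 48), namely AURKB (-0.07), CCNB2 (-0.0261), CENPA (-0.0904), ESPL1 (0.0359), PTTG1 (-0.0426) and UBE2C (-0.113), and with the block added these were at -0.0701, -0.0266, -0.0913, 0.036, -0.0427 and -0.112.

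With each library left out in turn, the lone library of a group was assumed to vary like the others. The count over all genes ranged from 45 to 5491, members past an adjusted p under 0.05 from 0 to 19, those at an unadjusted p under 0.05 from 0 to 22, the median of the members from -0.077 to -0.008, and the long minus short difference from -0.376 to 0.1. The highest counts and the difference of -0.376 came without CBX7 replicate 2, and the difference of 0.1 without CBX7 replicate 1. Of the 25 named genes, the sign turned for 17 and was kept for 8. Among the 17, log2 fold changes ranged from -0.447 to 0.0392 for ANLN, -0.138 to 0.296 for AURKB, -0.0069 to 0.181 for CCNB2, -0.0829 to 0.152 for CENPA, -0.154 to 0.207 for CENPE, -0.509 to 0.106 for CENPF, -0.31 to 0.103 for ESPL1, -0.43 to 0.0472 for INCENP, -0.815 to 0.129 for KIF14, -0.138 to 0.259 for KIF22, -0.114 to 0.0877 for NDC80, -0.053 to 0.00357 for NUSAP1, -0.285 to 0.000627 for PLK4, -0.0785 to 0.418 for PTTG1, -0.115 to 0.356 for SPC24, -0.363 to 0.0462 for TOP2A and -0.163 to 0.342 for UBE2C. Among the 8, they ranged from -0.0692 to -0.0141 for BUB3, 0.0701 to 0.203 for CCNB1, -0.117 to -0.00706 for CDC25B, -0.304 to -0.0223 for CKAP2, -0.279 to -0.0926 for HMMR, 0.0493 to 0.142 for PLK1, -0.147 to -0.0647 for PRC1 and -0.11 to -0.00942 for TTK. The depth of at least 20800910 counts gave every member at least 380.2 counts. Each group had 2 libraries, and what sets the precision was not tested.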
